A study of Mus musculus with 5 samples.

Results

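Semaphorins and plexins, with the neuropilins, and Slits and Robos are ligand and receptor families that guide growing axons and moving cells. The genes described here were the protein-coding genes whose symbol is Sema followed by a digit, Plxn, Nrp1 or Nrp2, Slit1 to Slit3 or Robo1 to Robo3. The rule took 37 of the 54232 genes in the table, which were 20 semaphorins, 9 plexins, 2 neuropilins, 3 Slits and 3 Robos, and it used names only and no measured value. RNA was measured in primary mouse myoblasts, the mononucleated precursors of muscle fibres, after 72 h in low-serum medium that makes them differentiate and fuse. WT cells (n = 3) were compared with Elmo2EID/EID cells (n = 2). The Elmo2EID/EID mice are homozygous for a knock-in point mutation in the ELMO inhibitory domain of ELMO2, a scaffold that works with DOCK proteins to activate the GTPase RAC, and the change favours the open form of ELMO2. Every cell of these mice carries the mutation, not the muscle cells alone. All mice were on a mixed C57BL6 and 129SV background and were 6 to 8 weeks old, and the cells came from leg muscle by a satellite cell kit and beads against integrin alpha 7. The study's methods describe primary cells as typically taken from independent mice, but the labels do not say so of these replicates, so the p-values below measure the spread between these samples, which may be technical in part.

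Semaphorins bind plexins, whose cytoplasmic part switches off small GTPases of the RAS and RAP families and acts on the actin skeleton. The secreted class 3 semaphorins mostly need a neuropilin as the binding partner of an A-type plexin, while membrane-bound semaphorins generally bind plexins alone. Slits are large secreted proteins that bind Robo receptors, and Robo signalling acts on RAC and CDC42 through adaptor and GAP proteins. In muscle these ligands are known mainly from the contacts that muscle cells make with motor axons and blood vessels.

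The libraries held between 35021856 and 49381544 reads, so that 3 reads corresponded to 2.65 to 3.73 normalized counts (counts divided by the size factor of the sample), and values at or under this floor were read as undetected. The samples were muscle cells by their markers. Myod1, Myog, Des, Mymk, Ckm and Acta1 had at least 17072 normalized counts in each sample, and none of the 8 myogenic markers passed the limma test below (2 at an unadjusted p under 0.05, none by edgeR or DESeq2). Elmo2 had 1642, 1539 and 1659.5 normalized counts in WT against 1441 and 1327 in Elmo2EID/EID samples (limma adjusted p = 0.226), and since a point mutation need not alter the amount of RNA, this level does not check the labels. WT replicate 2 stood apart, with the lowest WT value for each of 12 endothelial markers and with 225 normalized counts summed over 9 markers of fibro-adipogenic progenitors, against 1172 and 1498 in the other WT samples. Calls that were lost or gained without it are given with both values.

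Nearly all of the guidance genes were detected in differentiated myoblasts. With an expressed gene taken as one with 5 or more normalized counts in at least 1 sample, 36 of 37 were expressed, and 35 were at that level in all 5 samples. The exceptions were Robo3, a divergent Robo, which reached 5.61 in WT replicate 2 and lay between 0.896 and 3.73 in the others, and Sema5b, which had 1 read in 1 WT sample and none elsewhere and was not tested. Robo3 thus lay just inside the limit, and Sema5b lay under the floor of 3 reads.

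The levels spanned more than 3 orders of magnitude once divided by exon length. Per kilobase of exon, the most abundant member was Plxnb2, a receptor for class 4 semaphorins, with 3142 normalized counts (WT mean), followed by Plxna1 (1327), the usual A-type partner of neuropilins. The ligands came lower. Sema3b (471) and Sema3e (462), which are secreted, Sema7a (420.3), which is anchored in the membrane by GPI, and Sema6c (396), which is transmembrane, led the semaphorins, and the WT ranges of neighbours in this order overlapped. Plxnb2 and Plxna1 did not overlap with each other or with any other member. Slits and Robos were scarcer, with 71.1 for Robo1, 29.5 for Slit1 and 14.1 for Slit3. Robo1 made up 90.9% of the summed Robo1 to Robo3 level per kilobase in WT and 78.1% in Elmo2EID/EID samples.

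**Figure D1:**
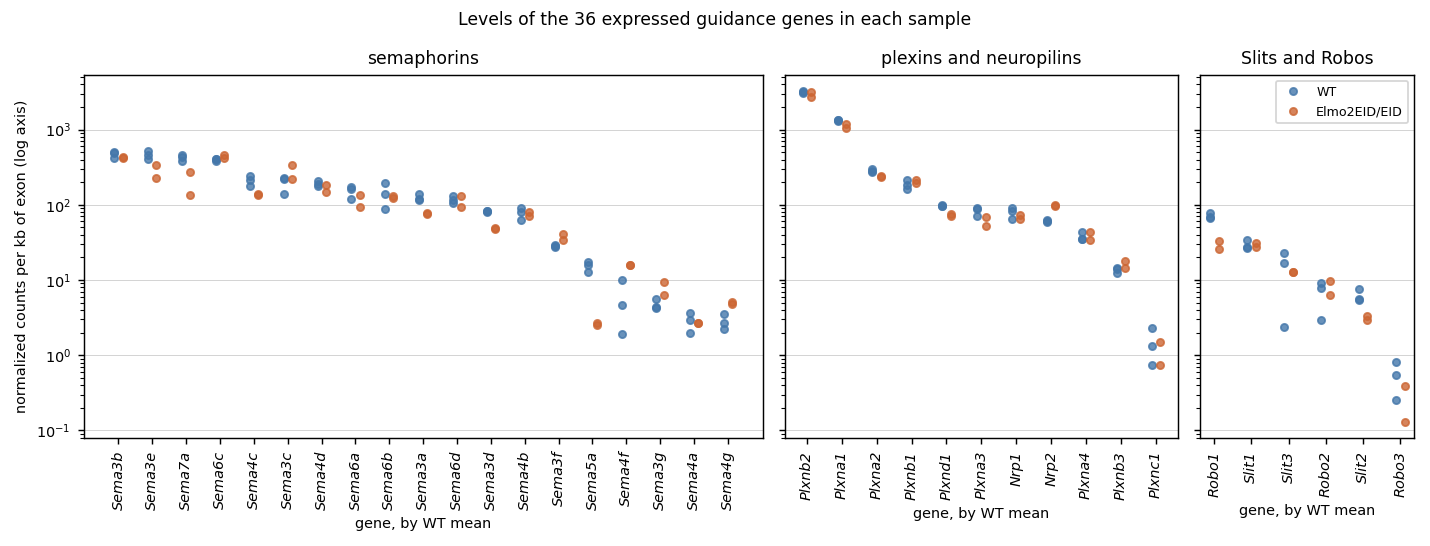
Levels of the 36 expressed guidance genes, in normalized counts per kilobase of exon on a log axis, with 1 point for each WT (blue, n = 3) and Elmo2EID/EID (orange, n = 2) sample and genes ordered by WT mean within each panel. Plxnb2 is highest at a WT mean of 3142 and Robo3 lowest at 0.541, and the orange points of Sema5a and Robo1 lie clear below the blue ones.

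The summed level of each family, per kilobase, moved by different amounts. The 3 Robos together had 78.3 ± 8.56 (SD, n = 3) in WT against 37.6 ± 6.75 (SD, n = 2) in Elmo2EID/EID samples, a ratio of 0.481. Class 3 semaphorins had a ratio of 0.850, the other semaphorins 0.810, plexins 0.907 and Slits 0.902. The neuropilins were the one family whose sum was higher, at 1.19 times the WT mean. No test was run on these sums, in which the most abundant genes weigh most.

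The question put to the genotypes was which ligands and receptors differ in Elmo2EID/EID myoblasts. Sema5a, Robo1, Sema3d and Sema3a fell and Nrp2 rose, and the other 31 expressed members did not pass the test. The test was limma's with a mean-variance trend on log2(normalized count + 1) over 18156 expressed genes, two-sided, with p-values adjusted by Benjamini-Hochberg and a threshold of 0.05, and fold changes are Elmo2EID/EID minus WT on that scale, which understates changes of low genes. Among the members 5 of 36 passed (13.9%), against 2.23% of all genes tested. The 4 that fell compare with 1.14% of all genes, and the 1 that rose with 1.09%. At an unadjusted limma p under 0.05 there were 16 members (12 lower and 4 higher) against 15.2% of all genes. The WT and Elmo2EID/EID samples did not overlap for 18 members (12 lower and 6 higher), where 32.6% of all genes did not. The members' median log2 fold change was -0.11 against 0.01 over all genes, and 24 of 36 were below 0, as were 47.91% of all genes.

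**Figure D2:**
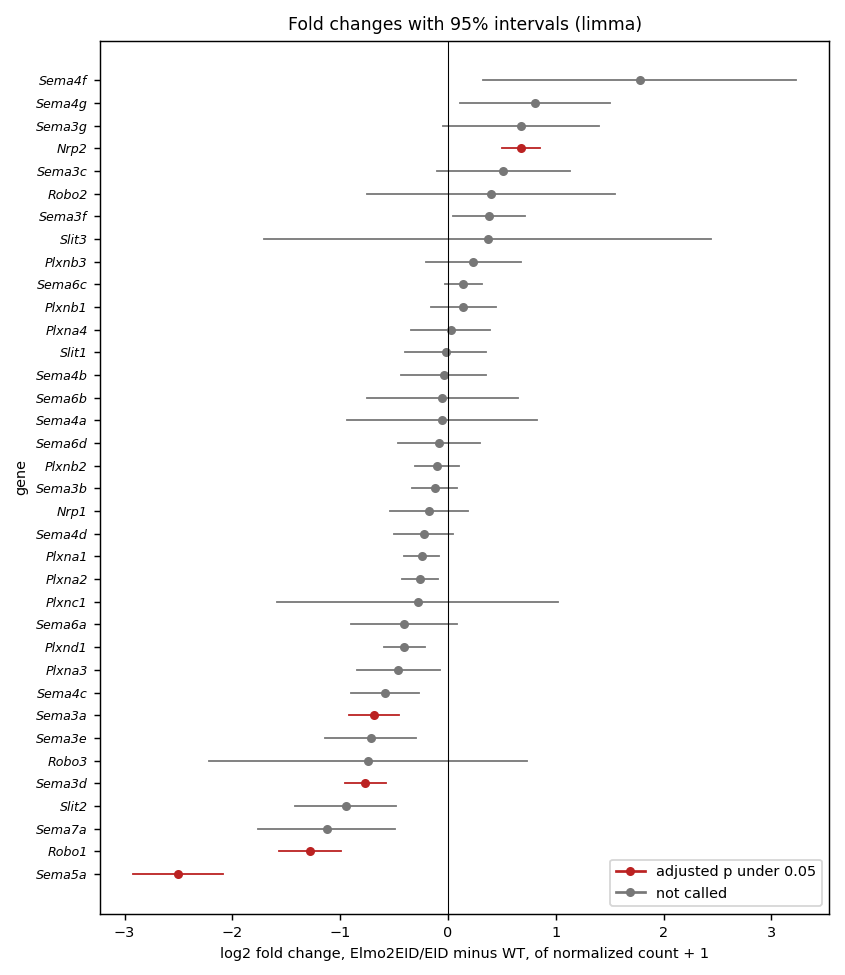
Log2 fold change of each expressed guidance gene, Elmo2EID/EID minus WT, on log2(normalized count + 1), with limma's 95% interval. The 5 genes in red passed an adjusted p of 0.05, 4 to the left of 0 and Nrp2 to the right, and Sema4f has the highest value, 1.78, with an interval of 0.33 to 3.23.

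The choice of tool decided how many members were added to these 5. edgeR's quasi-likelihood test, which called 2.25% of all genes, called the same 5 members. The DESeq2 Wald test, which called 5.79% of the 16748 genes it gave an adjusted p, called 10 members, the same 5 with Plxnd1, Sema3e, Sema4c, Sema7a and Slit2, all lower. In bulk RNA, fewer cells of a type and less RNA per cell cannot be told apart, and this holds for each gene below. The shares over all genes given here and above also apply beside the counts for each family and list below.

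Sema5a had the largest change among the members. Its product is a transmembrane semaphorin with thrombospondin repeats outside the cell that can attract or repel axons, and a ligand of PLXNB3. Sema5a (ENSMUSG00000022231, chromosome 15, 32244810 to 32696341, + strand) had 322, 292 and 237 normalized counts in WT against 47.4 and 50.2 in Elmo2EID/EID samples. The lowest WT sample was thus far above both Elmo2EID/EID samples. The means were 284 ± 42.7 for WT (SD, n = 3) against 48.8 ± 1.98 for Elmo2EID/EID (SD, n = 2), 5.81-fold lower (log2 fold change -2.50, SE 0.17, limma adjusted p = 0.00172). It passed with each sample left out in turn, at adjusted p from 0.00368 to 0.0435 by limma. Its paralogue Sema5b was at or under the floor of 3 reads, so Sema5a was the only class 5 semaphorin in these cells at this depth.

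Robo1 fell with it. ROBO1 is a Slit receptor found in many tissues besides the nervous system. Robo1 (ENSMUSG00000022883, chromosome 16, 72308306 to 73046095, + strand) had 1286, 1134 and 1103 normalized counts in WT against 432 and 539 in Elmo2EID/EID samples, again without overlap. The means were 1174 ± 97.8 for WT (SD, n = 3) against 485 ± 75.5 for Elmo2EID/EID (SD, n = 2), 2.42-fold lower (log2 fold change -1.28, SE 0.12, limma adjusted p = 0.00509). The Robo1 call was lost without the trend (limma adjusted p = 0.0576). Without Elmo2EID/EID replicate 1 the limma adjusted p was 0.0506, just above the threshold, and it passed with each other sample left out.

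Sema3d and Sema3a, secreted class 3 semaphorins, were lower by similar factors. Sema3d (ENSMUSG00000040254, chromosome 5, 12383385 to 12588948, + strand) had 709, 699 and 709.8 normalized counts in WT against 418 and 409.7 in Elmo2EID/EID samples. Both groups were tight, with means of 706 ± 6.02 for WT (SD, n = 3) against 414 ± 5.63 for Elmo2EID/EID (SD, n = 2), a fold of 1.71 (log2 fold change -0.77, SE 0.08, limma adjusted p = 0.00666). With the replicate number as a block the Sema3d call was lost (limma adjusted p = 0.0599). Sema3a (ENSMUSG00000028883, chromosome 5, 13125414 to 13602565, + strand), the classical repellent of axons that signals through neuropilin 1 and A-type plexins, had 1931, 1670.2 and 1584 in WT against 1062 and 1079 in Elmo2EID/EID samples, a fold of 1.61 (log2 fold change -0.69, SE 0.10, limma adjusted p = 0.0222). The Sema3d call was lost without Elmo2EID/EID replicate 1 (limma adjusted p = 0.0628) or 2 (0.0836). The Sema3a call was lost without WT replicate 1 (limma adjusted p = 0.0513), WT replicate 2 (0.0619) or Elmo2EID/EID replicate 1 (0.155) or 2 (0.192), while its fold change stayed negative in each case. It was also lost with no filter on low values (limma adjusted p = 0.0861) and without the trend (0.127).

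Nrp2, which encodes the co-receptor of SEMA3F and of VEGF-C, was the member that rose. Nrp2 (ENSMUSG00000025969, chromosome 1, 62703285 to 62818695, + strand) had 732, 734 and 699 normalized counts in WT against 1131 and 1174 in Elmo2EID/EID samples, 1.60 times the WT mean (log2 fold change 0.68, SE 0.07, limma adjusted p = 0.00772). The WT samples differed by little and both Elmo2EID/EID samples were above them. The Nrp2 call was lost without the trend (limma adjusted p = 0.0576) and with the replicate number as a block (0.0656). Without Elmo2EID/EID replicate 1 or 2 the limma adjusted p was 0.0701 or 0.102.

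**Figure D3:**
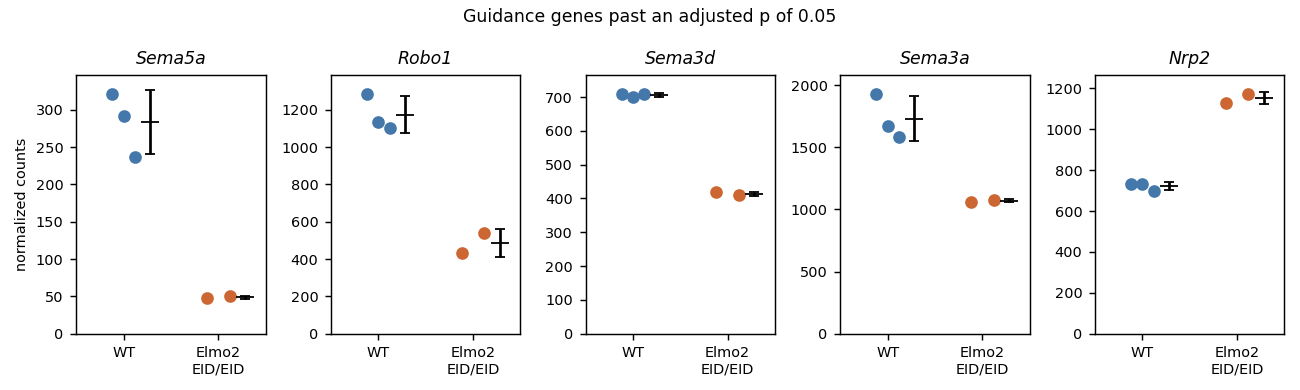
Normalized counts of the 5 guidance genes past an adjusted p of 0.05, with 1 point per WT (blue, n = 3) and Elmo2EID/EID (orange, n = 2) sample and the mean ± SD in black, each panel starting at 0. Sema5a drops from a WT mean of 284 to 48.8, and Nrp2 is the one panel with the orange points on top.

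The 250 bases before the RefSeq start of these 5 genes are shown because their transcripts were the ones that changed and the letters before their starts differ widely in base composition. The windows lie on the + strand of GRCm38.p6 at chr15:32244563-32244812, chr16:72662899-72663148, chr5:12382916-12383165, chr5:13396534-13396783 and chr1:62703067-62703316 in that order, written 5′ to 3′, with each match to CANNTG, the E-box motif that myogenic bHLH factors such as MYOD1 bind, in capitals. The motif reads the same on both strands as a pattern, and overlapping matches were counted.
Sema5a: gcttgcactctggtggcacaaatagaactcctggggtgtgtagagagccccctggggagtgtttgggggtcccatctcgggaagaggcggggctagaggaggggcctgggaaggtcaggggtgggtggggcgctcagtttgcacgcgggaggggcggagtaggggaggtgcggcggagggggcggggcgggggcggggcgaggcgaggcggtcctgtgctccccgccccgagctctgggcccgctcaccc
Robo1: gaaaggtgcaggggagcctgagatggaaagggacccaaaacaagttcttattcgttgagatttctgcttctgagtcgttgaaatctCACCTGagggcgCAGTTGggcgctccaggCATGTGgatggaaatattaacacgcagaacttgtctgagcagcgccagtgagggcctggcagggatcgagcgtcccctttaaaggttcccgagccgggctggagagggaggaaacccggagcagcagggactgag
Sema3d: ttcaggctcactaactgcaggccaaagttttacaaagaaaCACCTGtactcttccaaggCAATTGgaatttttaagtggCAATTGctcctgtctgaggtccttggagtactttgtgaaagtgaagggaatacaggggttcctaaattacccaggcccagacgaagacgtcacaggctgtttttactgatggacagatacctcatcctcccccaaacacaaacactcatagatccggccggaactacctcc
Sema3a: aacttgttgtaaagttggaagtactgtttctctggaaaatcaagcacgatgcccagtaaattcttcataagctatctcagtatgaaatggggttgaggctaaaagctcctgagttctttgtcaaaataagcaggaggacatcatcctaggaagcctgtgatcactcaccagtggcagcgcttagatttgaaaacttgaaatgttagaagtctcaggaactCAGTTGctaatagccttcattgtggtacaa
Nrp2: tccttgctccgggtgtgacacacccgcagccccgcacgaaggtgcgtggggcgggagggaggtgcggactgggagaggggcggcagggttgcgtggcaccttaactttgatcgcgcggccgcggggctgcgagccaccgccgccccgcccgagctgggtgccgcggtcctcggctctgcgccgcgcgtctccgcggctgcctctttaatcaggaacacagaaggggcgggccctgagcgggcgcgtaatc
Sema3d and Robo1 held 3 matches each, Sema3a 1, and Sema5a and Nrp2 none in windows of 72.0% and 72.4% G and C, against a median of 52.4% over all windows. A match was present in 66.2% of the 32851 windows of this length in the RefSeq table, so these matches are a description of the letters only. For Robo1 and Sema3a the RefSeq start lies 355 and 271 kb inside the annotated gene, which has other starts upstream, and gene-level counts do not show which start was used. Of the 37 members, 31 had a window in the table.

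Of the 7 class 3 semaphorins, all expressed, Sema3a and Sema3d fell and 5 did not pass the limma test. Sema3e, whose product binds PLXND1 without a neuropilin and repels endothelial cells, had the second highest WT mean per kilobase among the semaphorins. It had 4859, 4250.1 and 3767 normalized counts in WT against 2135 and 3148 in Elmo2EID/EID samples, without overlap (log2 fold change -0.72, SE 0.18, limma adjusted p = 0.105), and DESeq2 gave an adjusted p of 0.00411. The spread between the Elmo2EID/EID samples was wide for this gene. Sema3b, a neuropilin ligand gene with the highest WT mean per kilobase among the semaphorins, had 2350.2, 2377 and 2022 in WT against 2032 and 2084 in Elmo2EID/EID samples, which overlapped, with a 95% interval of the log2 fold change of -0.33 to 0.08. Sema3f, the main ligand of NRP2, had 148, 145 and 150.4 in WT against 175 and 211 in Elmo2EID/EID samples (log2 fold change 0.38, SE 0.14, limma adjusted p = 0.275). Both Elmo2EID/EID values of Sema3f were above WT. Sema3c overlapped between groups (983 to 1611 in WT, 1569.5 and 2399.9 in Elmo2EID/EID samples), and Sema3g was low, at 19.1 to 25.6 in WT against 28.6 and 42.1 in Elmo2EID/EID samples. Neither passed the limma test (adjusted p = 0.415 and 0.362).

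Sema3a, Sema3c, Sema3d and Sema3e lie together on mouse chromosome 5, and the data differed along this stretch. From the start of Sema3d at 12383385 to the end of Sema3c at 17730268 (GRCm38) are 5.35 Mb with 13 tested genes. Sema3d, Sema3a and Sema3e lie in the first 1.87 Mb with log2 fold changes of -0.77, -0.69 and -0.72, while Sema3c, 3.32 Mb past the end of Sema3e, had 0.51. Among the 9 other tested genes in between, 1 passed the limma test, where 2.23% of all genes did. This was Hgf, named after its values were seen, which encodes hepatocyte growth factor, a secreted factor that activates satellite cells. Hgf had 88.4, 76.3 and 106 normalized counts in WT against 30.4 and 16.1 in Elmo2EID/EID samples (log2 fold change -1.96, SE 0.31, limma adjusted p = 0.0346). Its call did not hold with any sample left out (limma adjusted p from 0.0652 to 0.181). The neighbour of Sema3e, Pclo, a presynaptic scaffold gene, had 247, 233 and 167 in WT against 112 and 124 in Elmo2EID/EID samples (limma adjusted p = 0.0944, DESeq2 adjusted p = 0.0111). Cacna2d1, a calcium channel subunit gene of muscle in the same stretch, had 29742, 30689.6 and 28122 in WT against 33722 and 35876 in Elmo2EID/EID samples, with the opposite sign (log2 fold change 0.24, limma adjusted p = 0.178, DESeq2 adjusted p = 0.0436). Of the 5 other protein-coding genes tested in the stretch, 4 had a negative log2 fold change (median -0.90 over the 5), Hgf, Pclo, Speer3 and Gm28710, of which Gm28710 was at 1 read in each Elmo2EID/EID sample, and Cacna2d1 was the exception. Over all genes 47.91% were below 0, and with so few genes the tally is a description only. Sema3b and Sema3f, 0.113 Mb from outer end to outer end on chromosome 9, had log2 fold changes of -0.12 and 0.38, neither called.

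**Figure D4:**
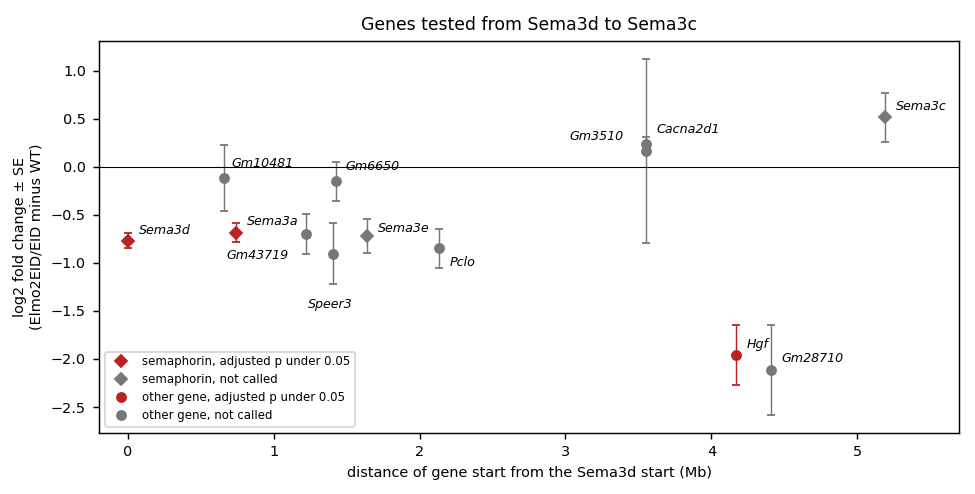
Log2 fold change ± SE (limma, Elmo2EID/EID minus WT) of the 13 tested genes from Sema3d to Sema3c, against the distance of each gene start from the Sema3d start in Mb. Diamonds are semaphorins and circles other genes, red where the adjusted p was under 0.05, and Sema3d, Sema3a and Sema3e lie near -0.72 while Sema3c lies at 0.51.

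Class 4, 6 and 7 semaphorins are membrane proteins, some of which can also act as receptors. None of the 6 class 4, 4 class 6 or 1 class 7 genes passed the limma test (4 at an unadjusted p under 0.05, none by edgeR and 2 by DESeq2). Sema7a, whose product binds PLXNC1 and integrins, had 1246, 1493 and 1419.6 normalized counts in WT against 897 and 446 in Elmo2EID/EID samples (log2 fold change -1.13, SE 0.27, limma adjusted p = 0.0974). Both Elmo2EID/EID values were below WT, but they differed from each other by a factor near that of the groups, and without Elmo2EID/EID replicate 1 the limma adjusted p was 0.0313. Sema4c, a PLXNB2 ligand known from muscle precursors, had 971, 1094 and 804 in WT against 641 and 627 in Elmo2EID/EID samples (log2 fold change -0.58, SE 0.13, limma adjusted p = 0.088), and it passed without WT replicate 3 (limma adjusted p = 0.0311). The 2 that DESeq2 called were Sema4c and Sema7a (adjusted p = 0.00487 and 0.00202).

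The highest fold change of a member that did not pass was that of Sema4f, which is known from nerve and Schwann cells. Sema4f had 24.7, 10.1 and 53.5 normalized counts in WT against 85.0 and 84.3 in Elmo2EID/EID samples (log2 fold change 1.78, SE 0.61, limma adjusted p = 0.234). Its WT values spread widely, with WT replicate 2 lowest, while both Elmo2EID/EID values were close together and above them. Sox10, a defining marker of Schwann cells, had 18.6, 2.24 and 97.0 in WT against 89.4 and 43.0 in Elmo2EID/EID samples, which overlapped. Of 8 Schwann cell markers, 7 had a fold change above 0 and none passed the limma test (2 at an unadjusted p under 0.05, none by edgeR or DESeq2). Their summed level was 16234 to 17149.6 in WT and 15661 to 16027 in Elmo2EID/EID samples, nearly all of it Erbb3, and their part in the Sema4f values was not tested. Sema4g had 23.0, 19.1 and 31.1 in WT against 43.8 and 41.2 in Elmo2EID/EID samples (log2 fold change 0.81, SE 0.29, limma adjusted p = 0.264), without overlap. Sema6c had 2422, 2249 and 2387 in WT against 2723 and 2474 in Elmo2EID/EID samples (log2 fold change 0.14, SE 0.07, limma adjusted p = 0.419), also higher in both Elmo2EID/EID samples but with an interval of -0.03 to 0.32 that spans 0. Sema4a, Sema4b, Sema4d, Sema6a, Sema6b and Sema6d overlapped between the groups, with log2 fold changes from -0.40 to -0.04 and limma adjusted p of at least 0.419.

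Plexins are the receptors that carry the semaphorin signal into the cell. All 9 plexin genes were expressed and none passed the limma test. An unadjusted p under 0.05 was found for 4, against 15.2% of all genes. edgeR called none and DESeq2 called Plxnd1. Plxnd1, the receptor of SEMA3E that is best known from blood vessels, had 712, 694 and 723 normalized counts in WT against 524 and 548 in Elmo2EID/EID samples (log2 fold change -0.41, SE 0.08, limma adjusted p = 0.0609, DESeq2 adjusted p = 0.00836). The 2 groups were each tight and did not overlap, and its limma adjusted p was the lowest of any member that did not pass. Plxna1 had 11938, 11979.7 and 12124 in WT against 9562 and 10754 in Elmo2EID/EID samples (log2 fold change -0.24, SE 0.07, limma adjusted p = 0.158). For Plxna2, another neuropilin partner, the values were 4713, 5209 and 4759.7 in WT against 3967 and 4199 in Elmo2EID/EID samples (log2 fold change -0.26, SE 0.07, limma adjusted p = 0.139). Plxna3, X-linked and the main plexin of SEMA3F, had 695, 711 and 561 in WT against 409.6 and 548 in Elmo2EID/EID samples (log2 fold change -0.46, SE 0.16, limma adjusted p = 0.244). These 3 A-type plexins were lower in both Elmo2EID/EID samples than in every WT sample, by a factor of 1.18 to 1.37, while Plxna4 overlapped at a log2 fold change of 0.02. For comparison, the groups did not overlap for 32.6% of all genes, in either direction.

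Plxnb2, the most abundant guidance gene, had 25087, 24338 and 23335 normalized counts in WT against 24477 and 20886 in Elmo2EID/EID samples. The samples overlapped, and the 95% interval of its log2 fold change, -0.30 to 0.10, covers 0 and excludes a change as large as that of any of the 5 called members. Without Elmo2EID/EID replicate 2 the sign turned (0.01). Plxnb1 and Plxnb3 also overlapped, with log2 fold changes of 0.14 and 0.23. Plxnc1, the SEMA7A receptor, was at 6.18 to 19.1 normalized counts, not far above the floor of 3 reads, and no difference was detectable at this depth. The exons of Plxnc1, Nrp1 and Sema4a overlap another gene on the same strand, so part of their reads could not be assigned with certainty.

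The order of the neuropilins differed between the groups. Nrp1, the co-receptor of SEMA3A and of VEGF-A, had 633 to 876 normalized counts in WT against 633 and 726 in Elmo2EID/EID samples, which overlapped (log2 fold change -0.18, limma adjusted p = 0.653). Per kilobase of exon, Nrp2 was at 0.690, 0.958 and 0.710 times Nrp1 in WT and at 1.5 and 1.3 times in Elmo2EID/EID samples. Nrp1 was thus the more abundant neuropilin in each WT sample and Nrp2 in each Elmo2EID/EID sample.

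Neuropilins and Plxnd1 are also endothelial genes, and endothelial markers were higher in the Elmo2EID/EID samples without passing the test. Of 12 such markers, 11 had both Elmo2EID/EID values above every WT value and 1, Cldn5, had both below, over a range of 1.79 to 6.18 normalized counts in the 5 samples, where 32.6% of all genes did not overlap. None passed the limma test, while 8 had an unadjusted p under 0.05, against 15.2% of all genes. edgeR called none and DESeq2 called 3, against 5.79% of all genes by DESeq2. Their summed level was 2122, 841 and 2337 in WT against 4170.3 and 6281 in Elmo2EID/EID samples, and Sox18 was at 0 in WT replicate 2. In that sample Nrp2 had 734, the highest of its WT values, while Nrp1 and Plxnd1 had 633 and 694, the lowest of theirs. Without that sample the limma adjusted p of Nrp2 was 0.0315. Leaving out a WT sample does not alter the higher sums of both Elmo2EID/EID samples. The part of endothelial cells in the Nrp2 difference was not tested.

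**Figure D5:**
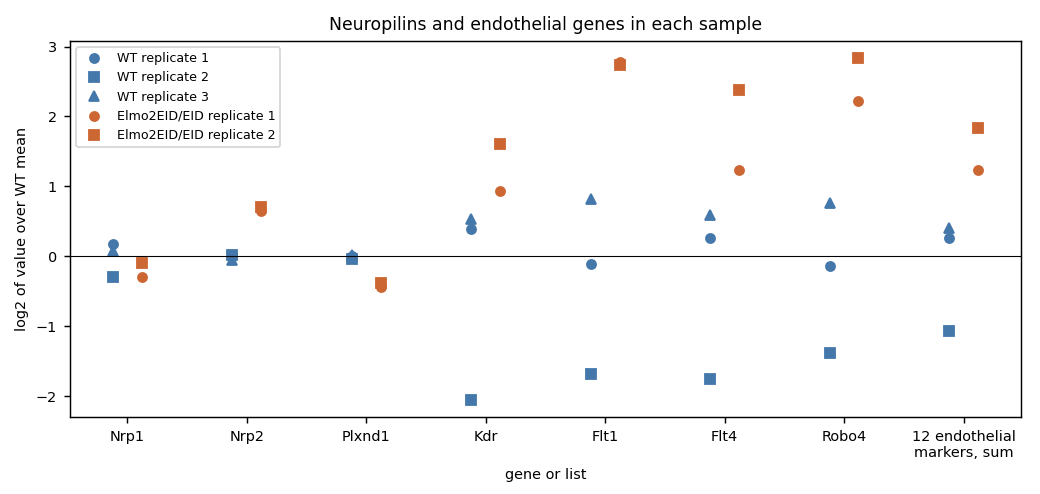
Log2 of each sample's value over the WT mean for Nrp1, Nrp2, Plxnd1, the VEGF receptor genes Kdr, Flt1 and Flt4, Robo4 and the sum of 12 endothelial markers, with WT in blue and Elmo2EID/EID in orange and a marker shape for each replicate. WT replicate 2 (blue square) is the lowest WT sample for Nrp1, Plxnd1, Kdr, Flt1, Flt4, Robo4 and the marker sum. For Nrp2 the 3 WT samples lie together.

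None of the 8 VEGF ligands and receptors passed the limma test, with 2 at an unadjusted p under 0.05, 1 called by edgeR and 2 by DESeq2. Flt1, a VEGF receptor of endothelial cells, had 33.6, 11.2 and 63.4 normalized counts in WT against 247 and 240.3 in Elmo2EID/EID samples (log2 fold change 3.02, SE 0.63, limma adjusted p = 0.0694, edgeR adjusted p = 0.0414). Without WT replicate 2 it passed with a smaller log2 fold change of 2.37 (limma adjusted p = 0.0345), and it also passed without WT replicate 3 (limma adjusted p = 0.0307). Flt4, the receptor gene for VEGF-C and the other gene that DESeq2 called, had 31.8, 7.85 and 39.8 in WT against 62.6 and 137 in Elmo2EID/EID samples (limma adjusted p = 0.228, DESeq2 adjusted p = 0.0487). Among the ligands, Pgf was lower without overlap, at 146, 127 and 159 in WT against 126 and 70.8 in Elmo2EID/EID samples (log2 fold change -0.59, limma adjusted p = 0.352). The ligands Vegfa, Vegfb and Vegfd overlapped between the groups, as did Vegfc, the ligand of NRP2, at 201, 167 and 155 in WT against 158 and 113 in Elmo2EID/EID samples.

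Among the Slits and Robos only Robo1, described above, passed the limma test. Slit2, whose product is the best-studied ROBO1 ligand, had 193, 142 and 139 normalized counts in WT against 85.9 and 75.3 in Elmo2EID/EID samples, 1.96-fold lower without overlap (log2 fold change -0.95, SE 0.20, limma adjusted p = 0.0694, DESeq2 adjusted p = 0.00743). Slit1 had 159, 164 and 201 in WT against 182 and 161 in Elmo2EID/EID samples, and its log2 fold change of -0.02 had an interval of -0.40 to 0.36. Slit3 had 140.5, 14.6 and 101 in WT against 76.9 and 78.0 in Elmo2EID/EID samples, and WT replicate 2 set its sign. With that sample the log2 fold change was 0.37, without it -0.61, and it was also negative by edgeR (-0.16) and DESeq2 (-0.14). No direction can be given for Slit3. None of the 3 Slits passed the limma test (1 at an unadjusted p under 0.05, none by edgeR and 1 by DESeq2).

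Robo2 lies next to Robo1 on chromosome 16 with no other tested gene between them, and its values overlapped between the groups. It had 49.7 to 156 normalized counts in WT against 107 and 164 in Elmo2EID/EID samples (log2 fold change 0.40, interval -0.75 to 1.55). Per kilobase of exon Robo1 exceeded Robo2 by 8.50, 8.89 and 22.8 times in WT and by 4.14 and 3.38 times in Elmo2EID/EID samples. Robo1 was thus the predominant Robo transcript in each sample.

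Robo4, the endothelial Robo that the symbol rule leaves out, had 10.6, 4.49 and 19.9 normalized counts in WT against 54.6 and 83.4 in Elmo2EID/EID samples (log2 fold change 2.64, SE 0.57, limma adjusted p = 0.077, edgeR adjusted p = 0.0478, DESeq2 adjusted p = 9.74e-04). Its fold change was opposite in sign to that of Robo1, and its lowest WT value, as for the endothelial markers, was that of WT replicate 2. Without WT replicate 3 it passed (limma adjusted p = 0.0439). The endothelial sums given above differed in the same samples, and their part in the Robo4 values was not tested.

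Markers of pericytes and smooth muscle did not share a direction, with 5 of the 7 tested below 0 and 2 above. Over all genes 47.91% were below 0 and 15.2% had an unadjusted limma p under 0.05. Of the 7 tested, 4 had an unadjusted limma p under 0.05, 2 lower and 2 higher, and 2 fell past the threshold, Rgs5, a pericyte gene, at 125, 65.1 and 90.7 in WT against 9.84 and 11.7 in Elmo2EID/EID samples (log2 fold change -2.97, SE 0.32, limma adjusted p = 0.00759), and Notch3, a Notch receptor found on mural cells and on satellite cells, at 2887, 2801 and 2768 in WT against 1319 and 703 in Elmo2EID/EID samples (log2 fold change -1.55, SE 0.23, limma adjusted p = 0.028). Over all genes 1.14% fell. Without the trend the calls of Rgs5 and Notch3 were lost (limma adjusted p = 0.0516 and 0.148). The Notch3 call was also lost with no filter on low values (limma adjusted p = 0.119). Without Elmo2EID/EID replicate 1 or 2 the Rgs5 call was lost (limma adjusted p = 0.0929 and 0.0966), and without WT replicate 1, 2 or 3 the Notch3 call was lost (limma adjusted p = 0.112, 0.0792 and 0.0625). The other 5 did not pass. Abcc9, Pdgfrb and Acta2 overlapped between the groups, at log2 fold changes of -0.16, -0.30 and -0.09. Cspg4, at 2545, 1821 and 1903 in WT against 2746 and 2676 in Elmo2EID/EID samples, and Myh11, at 41.5, 22.4 and 84.5 against 129 and 106, had both Elmo2EID/EID values above WT (limma adjusted p = 0.264 and 0.250). The summed list, most of it Acta2, was 43547 to 59378 in WT and 47671 to 47849 in Elmo2EID/EID samples. Kcnj8, a defining pericyte marker, was at or under the floor in every sample. The part of such cells in the Robo1 and Sema5a values was not tested. None of 7 tested markers of fibro-adipogenic progenitors and none of 5 of macrophages passed the limma test (2 and 1 at an unadjusted p under 0.05, none by edgeR or DESeq2), and the macrophage list summed to 79.8 to 217 normalized counts.

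Genes for proteins that bind these receptors or act after them, at the membrane or inside the cell, were compared in the same fit. Of 28 genes for partners of semaphorins and plexins (among them collapsin response mediators, MICALs, small GTPases and their exchange factors, kinases and adhesion proteins), 27 were tested and 1 fell, against 2.23% of all genes called in either direction. This was Met, the receptor of hepatocyte growth factor, which associates with B-type plexins. Met had 1754, 1810.4 and 1615 normalized counts in WT against 1165 and 922 in Elmo2EID/EID samples (log2 fold change -0.73, SE 0.11, limma adjusted p = 0.0299). Both Elmo2EID/EID samples were below WT, and the call held only without WT replicate 3 (limma adjusted p = 0.0463) among the fits that left out a sample, with 0.0513 and 0.158 without Elmo2EID/EID replicates 1 and 2 and 0.118 and 0.088 without WT replicates 1 and 2. Its ligand gene Hgf, described above with the semaphorins of chromosome 5, was lower in the same samples.

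The 26 others of this list did not pass. Over the 27, 6 had an unadjusted limma p under 0.05 (2 higher and 4 lower), against 15.2% of all genes. edgeR and DESeq2 each called 1, against 2.25% and 5.79% of all genes. The groups did not overlap for 8 (4 higher and 4 lower), where 32.6% of all genes did not. Of the fold changes, 14 were above and 13 below 0 (median log2 fold change 0.0018). Rac1 and Rhoa, the GTPases through which plexin signals reach actin, had log2 fold changes of 0.00 and -0.05 and overlapped between the groups. The other small GTPase genes of the list, Rnd1, Rhod and Rras, did not overlap. Their log2 fold changes were 1.21, -0.30 and 0.20 (limma adjusted p = 0.138, 0.221 and 0.241). Of 17 genes for Slit and Robo partners, which include the srGAPs and the adaptors NCK1 and NCK2, 16 were tested and none passed (3 at an unadjusted p under 0.05, 1 by edgeR and 2 by DESeq2). Nck2 had 956, 968 and 1037 normalized counts in WT against 770.0 and 677 in Elmo2EID/EID samples, without overlap (log2 fold change -0.45, SE 0.09, limma adjusted p = 0.0625, DESeq2 adjusted p = 0.00421). The median log2 fold change of this list was 0.04. Srgap1, Srgap2 and Srgap3, which link Robos to RAC and CDC42, overlapped between the groups at log2 fold changes of 0.17, 0.13 and 0.04.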

How the data were processed

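Poly-A RNA of 5 samples (WT, n = 3, and Elmo2EID/EID, n = 2) was sequenced in pairs on a stranded library. Per the labels and the study's methods, the authors aligned to GRCm38 with STAR 2.5.1b, counted per gene with featureCounts 1.4.6 on the reverse strand and deposited a signal, the count divided by the DESeq2 (1.34.0) size factor of the sample. Dividing by the value of 1 read gave whole reads for 100.0% of values (within 0.01 read), 35021856 to 49381544 per sample. Chi-square per degree of freedom between replicates was 24.2 to 34.4, more than sampling noise gives.

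Genes with 5 or more normalized counts in at least 1 sample were tested with limma (3.58.1, trend) on log2(normalized count + 1), since the values are not counts, with Benjamini-Hochberg adjustment. edgeR 4.0.16 and DESeq2 1.42.0 on the recovered reads, other pseudocounts (0.5 and 5) and filters, quantile and equal-total scaling, limma without trend, a replicate block and leaving out each sample were alternatives. The fits were tested on simulated data. Names and positions came from GENCODE M21 (54165 of 54232 identifiers matched) and promoters from RefSeq on GRCm38.p6, in R 4.3.3, Python 3.11.15, pandas 2.3.3 and matplotlib 3.10.9. 3 antisense Plxna4 rows fell outside the rule. The members and lists were chosen with earlier results of these data known. Values per sample are given for members with an adjusted or unadjusted p under 0.05, or without overlap at a mean of at least 50, and for the 3 most abundant of each family. Of the other lists, genes past an adjusted p of 0.05 and Robo4 were to be named, and others were named after their values were seen. Counting intervals were not computed, and floors cover counting error only.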

Additional observations from a re-analysis of the deposited data

How the results depend on the processing

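Of 336 fold changes of named guidance genes under 16 alternatives, 301 kept their direction and side of the threshold, 12 passed it newly, 15 no longer passed and 8 changed sign. The sign changed for Plxnb2 (-0.215 to 0.0139 with 1 sample left out, positive without Elmo2EID/EID replicate 2), Slit1 (0.0844 in both blocked fits, and -0.106 to 0.0844 with 1 sample left out, positive without WT replicate 3 or Elmo2EID/EID replicate 2) and Slit3 (-0.157 with edgeR, -0.141 with DESeq2, and -0.613 to 0.979 with 1 sample left out, negative without WT replicate 2), and the cause was not tested. The 404 genes called became 155 with no filter on low values, 969 with DESeq2 and 144 without the trend. The 5 guidance genes called became 4 with no filter (Sema3a was lost), 10 with DESeq2 and 2 (Sema3d and Sema5a) without the trend. Over the partner, VEGF and netrin lists together, the 1 gene called (Met) became 0 with no filter or without the trend, 3 with edgeR and 6 with DESeq2. Leaving out 1 sample gave 54 to 349 genes, 2 to 6 guidance genes and 0 to 3 genes of those lists. A single remaining Elmo2EID/EID sample was then assumed to vary like WT. Expressed guidance genes stayed at 35 or 36.

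The replicate numbers did not pair the samples (correlation across genes -0.21, over 13988 genes), and a number shared between groups is only a name. With the replicate block 224 genes, 3 guidance genes (Robo1, Sema3a and Sema5a) and 1 gene of those lists (Flt1, while Met was lost at a limma adjusted p of 0.0655) were called. With the numbers crossed, chosen after seeing the data, 1041, 10 and 10 were called. Depth limits Plxnc1, Robo3 and Sema5b, the 3 members with the lowest counts.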

Other observations

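Netrins, repulsive guidance molecules and their receptors form the neighbouring guidance system. Of 15 such genes, 14 were found in the table under their own or a synonymous symbol, 11 were tested and none passed the limma test (3 at an unadjusted p under 0.05, all lower, none by edgeR and 1 by DESeq2). Unc5a, a netrin receptor gene, had 504, 691 and 497 normalized counts in WT and 32.2 and 191 in Elmo2EID/EID samples (log2 fold change -2.81, SE 0.65, limma adjusted p = 0.0914). Each Elmo2EID/EID sample weighed heavily on this value, which was -4.07 without replicate 2 (limma adjusted p = 0.0139) and -1.54 without replicate 1 (limma adjusted p = 0.0907). The 2 Elmo2EID/EID samples were both below WT and differed from each other by a larger factor than the WT samples did. Rgma, which encodes a repulsive ligand of neogenin and was the gene that DESeq2 called, had 861, 707 and 681 in WT against 587 and 458 in Elmo2EID/EID samples (log2 fold change -0.52, limma adjusted p = 0.158, DESeq2 adjusted p = 0.0481). Dcc, the classical netrin receptor gene, had no read in any sample, which allows up to 3 reads per sample. Hfe2, which encodes hemojuvelin, the muscle member of the repulsive guidance molecules, had 16884 to 18892 in WT and 18904 and 17192 in Elmo2EID/EID samples, which overlapped. These genes were named after their values were seen.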
